A study of Mus musculus with 30 samples.

Results

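Transport of amino acids across the plasma membrane was followed in mouse liver through 9 genes of the 14173 listed in both deposited count tables. The genes were taken by symbol, before any filter, and are *Slc38a3*, *Slc38a4*, *Slc38a2*, *Slc7a2*, *Slc7a5*, *Slc3a2*, *Slc1a4*, *Slc43a1* and *Slc16a10*. All 9 are protein coding, and all 9 differed among the 5 diets of the study in 1 edgeR test of any difference, which called 43.4% of the genes tested. They did not move as 1 group. Casein restriction lowered the mRNAs of *Slc38a3*, *Slc38a4* and *Slc7a2* to between 44.2 and 46.0% of the control mean. These encode carriers of glutamine, small neutral and cationic amino acids, in that order. Raised were the mRNAs of *Slc38a2*, another carrier of small neutral amino acids, and of both chains of the exchanger LAT1. *Slc7a1*, a cationic carrier outside the 9, also rose.

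Amino acids enter and leave liver cells on carriers that differ in their substrates and in what drives them. Sodium-coupled carriers of the SLC38 family concentrate small neutral amino acids in the cell, and System N, one of their activities, can run in either direction and carries glutamine, histidine and asparagine. Exchangers such as LAT1 trade one amino acid for another, and uniporters such as LAT3 and TAT1 let them move down their gradients. When amino acids run short, the transcription factor ATF4 raises many genes of amino acid synthesis and transport, *Slc38a2* and *Slc7a5* among them.

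Liver RNA came from 30 male C57BL6/J mice at 6 months of age, 6 on each diet, and each mouse gave 1 library, so mice were the replicates. The mice arrived at 9 weeks of age and were first fed Cas-20% (casein groups) or Soy-20% (soy groups). At 12 weeks they were moved to their diet for 12 weeks, and were killed after a 4 h fast. No genotype or drug differed between groups. Cas-20% held 20% casein, with 0.57 g methionine and 0.41 g cysteine per 100 g. Cas-5% held 5% casein, with 0.15 g and 0.1 g. Soy-20% held 20% soy protein, with 0.22 g and 0.22 g. Soy-20% + SAA held the same soy protein with sulfur amino acids added to 0.58 g methionine and 0.41 g cysteine. Soy-10% held 11.5% soy protein according to the labels, with 0.13 g of each. Casein and soy restriction therefore cut sulfur amino acids to similar levels, but total protein less on soy. Soy-20% against Soy-20% + SAA varied sulfur amino acids at the same soy protein level, but only the Soy-20% + SAA mice had changed diet at 12 weeks.

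Library totals ran from 7694015 to 14565542 counts, with a median of 10803734. Values below are normalized counts, the deposited counts divided by a size factor for each library. Since 1 fragment near the 3′ end is read per transcript, they are not divided by gene length, and no gene's level is compared with another's. The label of liver was checked against 6 hepatocyte markers, whose summed level was 61400 CPM (counts scaled to the same total in every library) or more in every liver, while the 5 bile duct markers in the table summed to 25.21 to 54.6 CPM, mostly *Sox9* and *Spp1*, with *Krt19* and *Krt7* at 1.45 CPM or less. Pancreatic acinar markers reached 568.9 CPM in Soy-10% liver 4 and 16.89 to 55.69 CPM in the other 29 livers. Soy-20% + SAA livers 3 to 6 stood apart in how counts followed the GC content of the last 200 bases of transcripts, with slopes of 0.0624 to 0.2149 log2 units per 10% GC against −0.0637 to 0.0263 in the other 26 livers. Calls of the 9 transporters between that diet and another are therefore also given without those 4 livers. The last 200 bases of the 9 transporters held 23.5% (*Slc16a10*) to 51.5% (*Slc43a1*) GC.

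Promoter sequence is shown for members on both sides of the response, because many genes raised by ATF4 carry a composite C/EBP-ATF element. RefSeq windows (build GRCm38.p6, 250 bases before to 50 after a transcript start) were matched by symbol for 6 of the 9 genes, with 8 windows in all. *Slc38a3*, *Slc7a2* and *Slc7a5* had no window. The core letters TGATGNAA were searched on both strands, as TGATGNAA or TTNCATCA. *Slc1a4* alone held a match, TTGCATCA, which begins 4 bases before the transcript start and is in capitals. All 4 sequences run 5′ to 3′ along the gene, on the minus strand of the genome, and stop 20 bases after the start.
Slc1a4, chr11:20332694-20332963: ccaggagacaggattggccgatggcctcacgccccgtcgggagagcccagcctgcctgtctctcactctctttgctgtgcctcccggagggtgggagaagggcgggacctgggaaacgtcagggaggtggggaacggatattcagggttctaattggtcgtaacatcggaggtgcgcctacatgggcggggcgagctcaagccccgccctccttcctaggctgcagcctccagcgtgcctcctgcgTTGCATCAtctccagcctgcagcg
Slc38a2, chr15:96699709-96699978: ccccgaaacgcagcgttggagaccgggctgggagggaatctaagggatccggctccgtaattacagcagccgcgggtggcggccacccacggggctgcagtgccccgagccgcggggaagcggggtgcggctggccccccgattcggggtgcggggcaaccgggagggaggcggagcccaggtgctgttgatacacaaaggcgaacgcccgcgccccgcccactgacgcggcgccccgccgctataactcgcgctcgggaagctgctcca
Slc3a2, chr19:8713878-8714147: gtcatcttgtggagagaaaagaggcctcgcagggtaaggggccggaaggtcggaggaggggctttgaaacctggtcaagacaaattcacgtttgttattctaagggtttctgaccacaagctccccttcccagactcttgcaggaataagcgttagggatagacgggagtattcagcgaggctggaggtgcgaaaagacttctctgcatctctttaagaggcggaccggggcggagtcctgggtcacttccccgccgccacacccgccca
Slc38a4, chr15:97055937-97056206: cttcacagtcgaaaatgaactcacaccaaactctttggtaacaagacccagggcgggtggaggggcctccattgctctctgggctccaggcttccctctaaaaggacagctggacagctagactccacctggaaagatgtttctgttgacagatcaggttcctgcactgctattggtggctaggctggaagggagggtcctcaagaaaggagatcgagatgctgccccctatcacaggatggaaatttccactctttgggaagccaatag
Across all 32851 windows, 3.97% held a match. The letters are a description of these windows, and the element known in *Slc38a2* lies in an intron, outside its window. The RefSeq start of *Slc3a2* lies inside the gene as GENCODE draws it, and *Slc38a4* has further starts whose windows held no match.

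Casein restriction, Cas-5% against Cas-20%, was tested with edgeR on 12 livers, as was each pair of diets below. Of the 12076 genes tested, 24.9% were called at an adjusted p of 0.05 or less, 11.6% higher and 13.3% lower. Of the 8 transporters tested, 3 rose and 4 fell. In the plot of every liver, the groups of *Slc38a3*, *Slc38a4*, *Slc7a2*, *Slc38a2*, *Slc3a2* and *Slc7a5* do not overlap between those diets. Among all genes tested, 5.14% lay wholly above and 7.73% wholly below the control. The median log2 fold change of the 8 was −0.08, beside 0.016 for all genes, since rises and falls offset each other. In whole liver, fewer cells of a type and less RNA per cell cannot be told apart. Summed hepatocyte markers were also higher in CPM on Cas-5% (73290 to 91140 CPM) than on Cas-20% (61400 to 68800), as were 5 endothelial markers (262.7 to 292 against 204.2 to 244.2) and 5 stellate markers (376.3 to 515.9 against 258.4 to 365.3). CPM sets Cas-5% higher against Cas-20% than normalized counts do. For *Slc16a10*, the Cas-5% mean was 360 against 460 in normalized counts, but 36.5 against 40.6 in CPM. These marker gaps would therefore be narrower in normalized counts. Over all livers *Alb* held 38600 to 64900 CPM and *Ttr* 13000 to 17700, against 277 to 1120 for *Cps1* and 77.6 to 728 for *Tat*. The hepatocyte sum thus mostly follows *Alb* and *Ttr*, and does not show that each marker rose. The part of these marker sums in the results was not tested.

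**Figure D1:**
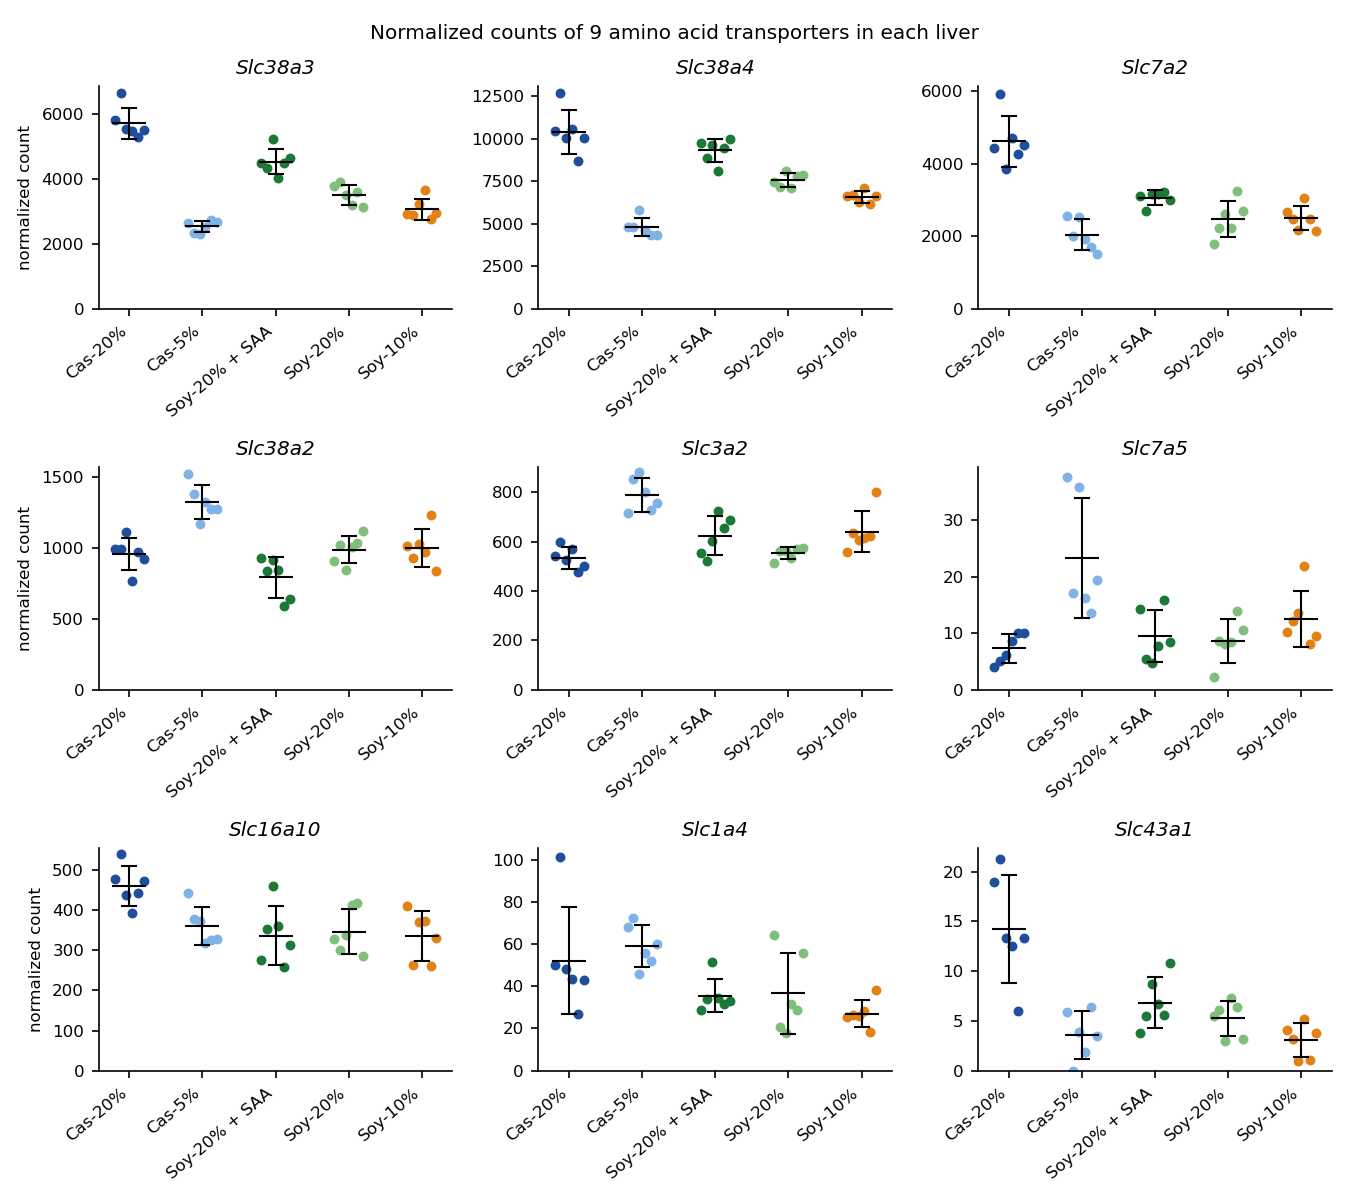
Normalized count (vertical axes, from 0) of each of the 9 transporters in each of the 30 livers, by diet. Points are livers, long bars are means and short bars 1 SD (n = 6). *Slc38a3*, *Slc38a4* and *Slc7a2* are highest on Cas-20% and lowest on Cas-5%, while *Slc38a2*, *Slc3a2* and *Slc7a5* are highest on Cas-5%.

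*Slc38a3* encodes SNAT3, the System N carrier of glutamine and histidine (GRCm38, chromosome 9, 107650634 to 107669530, minus strand). Its normalized counts were 5278 to 6647 (median 5520.4) on Cas-20% and 2306 to 2729 (median 2574) on Cas-5%. On the soy diets they were 4031 to 5221 (median 4486) with added sulfur amino acids, 3129 to 3908 (median 3556) on Soy-20% and 2758 to 3654 (median 2931) on Soy-10%. Every Cas-5% liver lay below every liver of the other 4 diets, and every Cas-20% liver lay above them all. The Cas-5% mean, 2535 ± 179 (SD, n = 6), was 44.4% of the Cas-20% mean, 5710 ± 488. *Slc38a3* fell by 1.16 on the log2 scale (SE 0.07, edgeR adjusted p = 1.3e-08), a change far outside the spread within either diet. Under the 18 alternatives tried it fell by 1.12 to 1.19.

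*Slc38a4* encodes SNAT4, a System A carrier of small neutral amino acids that is abundant in liver (chromosome 15, 96994820 to 97055956, minus strand). Its counts were 8703 to 12674 (median 10262) on Cas-20% and 4331 to 5791 (median 4708) on Cas-5%. They were 8118 to 9967 (median 9550.2) on Soy-20% + SAA, 7106 to 8106 (median 7619) on Soy-20% and 6135 to 7097 (median 6628) on Soy-10%. Each Cas-5% liver again lay below every liver of the other diets. The 3 soy diets did not overlap each other, and of these only Soy-20% + SAA reached into the Cas-20% range. Against Cas-20%, the gene fell by 1.11 on the log2 scale on Cas-5% (SE 0.09, edgeR adjusted p = 3e-07).

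*Slc7a2* encodes CAT2, which carries arginine, lysine and ornithine (chromosome 8, 40862396 to 40922308, plus strand). Its counts were 3853 to 5929 (median 4484) on Cas-20% and 1518 to 2564 (median 1960.4) on Cas-5%. On the soy diets they were 2692 to 3234 (median 3147) on Soy-20% + SAA, 1784 to 3240.1 (median 2432) on Soy-20% and 2153 to 3051 (median 2477) on Soy-10%. Cas-20% livers stood above all others, and the other 4 diets ran into each other except that every Cas-5% liver lay below every Soy-20% + SAA liver. On Cas-5% the gene fell by 1.17 on the log2 scale (SE 0.13, edgeR adjusted p = 6.1e-06).

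*Slc38a2* encodes SNAT2, the System A carrier that many cell types raise when starved of amino acids (chromosome 15, 96687392 to 96699730, minus strand). Counts were 769 to 1115 (median 980.0) on Cas-20% and 1171 to 1524 (median 1301) on Cas-5%. They were 592 to 926 (median 842) on Soy-20% + SAA, 846 to 1117 (median 1011) on Soy-20% and 835 to 1230.5 (median 993) on Soy-10%. Cas-5% livers lay above all Cas-20%, Soy-20% and Soy-20% + SAA livers, and 1 Soy-10% liver reached into their range. *Slc38a2* was 1.39-fold higher on Cas-5% than on Cas-20% (log2 0.48, SE 0.09, edgeR adjusted p = 0.00055). Of the 3 SLC38 genes it alone rose, and Cas-5% held its highest mean but the lowest means of *Slc38a3* and *Slc38a4*.

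*Slc3a2* encodes the CD98 heavy chain, which brings LAT1 and other light chains to the cell surface (chromosome 19, 8706882 to 8723369, minus strand). Counts were 476 to 598 (median 533) on Cas-20% and 716 to 882 (median 778) on Cas-5%. They were 522 to 724 (median 628) on Soy-20% + SAA, 514 to 576 (median 563) on Soy-20% and 558 to 799.8 (median 619.9) on Soy-10%. The casein diets did not overlap, and 1 Soy-10% and 1 Soy-20% + SAA liver reached into the Cas-5% range. The heavy chain was 1.49-fold higher on Cas-5% than on Cas-20% (log2 0.57, SE 0.07, edgeR adjusted p = 3e-05).

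*Slc7a5* encodes LAT1, the light chain that exchanges large neutral amino acids such as leucine and methionine (chromosome 8, 121881150 to 121907694, minus strand). It was near the detection limit, with 2 to 38 raw counts per library. Its normalized counts were 4 to 10 (median 7.4) on Cas-20% and 13.6 to 37.6 (median 18.2) on Cas-5%, without overlap. They were 4.8 to 15.8 (median 8.1) on Soy-20% + SAA, 2.2 to 13.9 (median 8.6) on Soy-20% and 8 to 21.9 (median 11.2) on Soy-10%, and these 3 diets overlapped. *Slc7a5* was 3.19-fold higher on Cas-5% than on Cas-20% (log2 1.67, SE 0.32, edgeR adjusted p = 0.0011), the largest rise among the 8, with the widest error. A gene model on the opposite strand, *Gm20388*, overlaps the last 1000 bases of *Slc7a5*, and no gene overlaps those of the other 8 transporters.

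**Figure D2:**
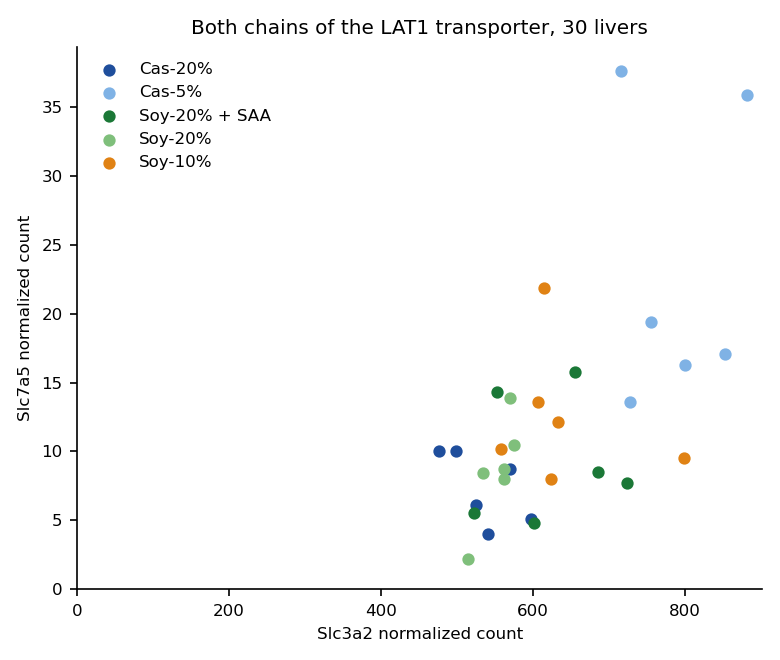
Normalized count of *Slc7a5* (LAT1 light chain, vertical axis) against that of *Slc3a2* (CD98 heavy chain, horizontal axis), both from 0, with 1 point per liver coloured by diet (30 livers). The 6 Cas-5% livers lie to the upper right, with *Slc3a2* of 716.3 or more and *Slc7a5* of 13.6 or more.

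Both chains of LAT1 were thus higher on Cas-5%. Within diets the chains were not seen to track each other. *Slc7a5* had 2 to 38 raw counts per library, and the part of counting error was not tested. Over the 26 livers without Soy-20% + SAA livers 3 to 6, Pearson r of log2 CPM was 0.74 for the pair and 0.07 once each diet's mean was taken off. The points share 5 diets, and this is a description with no test. For *Slc38a3* and *Slc38a4*, which had far higher counts, r was 0.88, and 0.08 within diets. *Slc38a4* and *Slc7a2* differed from them, with r = 0.81, and 0.65 within diets. *Slc7a5*, despite its low counts, had r = 0.70 with *Slc7a2* within diets, and −0.24 before diet means were taken off.

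*Slc16a10* encodes TAT1, a uniporter of tyrosine, phenylalanine and tryptophan (chromosome 10, 40033532 to 40142258, minus strand). Counts were 392 to 540.0 (median 456) on Cas-20% and 318 to 441 (median 349.9) on Cas-5%. They were 257 to 461 (median 333) on Soy-20% + SAA, 284 to 417 (median 332) on Soy-20% and 261 to 410.2 (median 350.2) on Soy-10%. All 5 diets overlapped, with Cas-20% uppermost. The gene fell by 0.34 on the log2 scale on Cas-5% (SE 0.09, edgeR adjusted p = 0.012), the smallest change called among the 8.

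*Slc1a4* encodes ASCT1, an exchanger of alanine, serine, cysteine and threonine (chromosome 11, 20302180 to 20332713, minus strand). Counts were 26.9 to 101 (median 45.8) on Cas-20% and 45.6 to 72.5 (median 57.8) on Cas-5%. They were 28.7 to 51.3 (median 33.7) on Soy-20% + SAA, 18.1 to 64.5 (median 30.1) on Soy-20% and 18.2 to 38 (median 26.4) on Soy-10%. The casein diets overlapped, with Cas-20% liver 2 the highest liver of the study, whereas every Cas-5% liver lay above every Soy-10% liver. The log2 difference between Cas-5% and Cas-20% was 0.18 (SE 0.24, edgeR adjusted p = 0.62). Without Cas-20% liver 2 it was 0.48 and passed the test (edgeR adjusted p = 0.049).

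*Slc43a1* encodes LAT3, a uniporter of branched-chain and other neutral amino acids (chromosome 2, 84838850 to 84863594, plus strand). Counts were 6 to 21.3 (median 13.3) on Cas-20% and 0 to 6.4 (median 3.7) on Cas-5%, where liver 2 had 0 raw counts, a value that allows up to 3. They were 3.8 to 10.8 (median 6.2) on Soy-20% + SAA, 3 to 7.3 (median 5.8) on Soy-20% and 1 to 5.2 (median 3.5) on Soy-10%. Of the 6 Cas-20% livers, 5 lay above every liver of the other 4 diets, and the remaining one lay above the Soy-10% livers alone. The gene failed edgeR's filter on low counts in Cas-5% against Cas-20%. With no filter it was lower on Cas-5%, with a log2 difference of −1.86 (SE 0.40, edgeR adjusted p = 0.0028).

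Soy restriction was first compared with Soy-20% + SAA, the control matched to Cas-20% in sulfur amino acids. *Slc38a3*, *Slc38a4* and *Slc7a2* fell and no transporter rose, with 5 of the 8 tested not called. Of 11983 genes tested, 17% were called, 8.51% higher and 8.47% lower, so 3 of 8 falling stands beside 8.47%, and the median log2 change of the 8 was −0.15, beside −0.01 for all genes. *Slc38a3* fell by 0.57 on the log2 scale (SE 0.08, edgeR adjusted p = 0.00078) and *Slc38a4* by 0.50 (SE 0.07, edgeR adjusted p = 0.00045), and for both every Soy-10% liver lay below every Soy-20% + SAA liver. Among all genes, 3.31% lay wholly below that control. *Slc7a2* fell by 0.29 (SE 0.09, edgeR adjusted p = 0.031), with overlap between the diets.

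Without Soy-20% + SAA livers 3 to 6, the log2 difference was −0.53 for *Slc38a3* (edgeR adjusted p = 0.012) and −0.51 for *Slc38a4* (0.0051). That of *Slc7a2* was −0.22 and no longer passed (0.39), nor did it with the GC slope of each library as a covariate (−0.22, edgeR adjusted p = 0.27) or without any 1 of Soy-20% + SAA livers 3 to 6 or Soy-10% livers 2, 3, 5 and 6 (highest edgeR adjusted p = 0.07, without Soy-10% liver 3). For *Slc38a2* the log2 difference was 0.34 (SE 0.12, edgeR adjusted p = 0.066) in all 12 livers, 0.17 without those 4, and 0.39 without Soy-20% + SAA liver 1 alone, which passed (0.032). The heavy chain *Slc3a2* differed by 0.03 (SE 0.10, edgeR adjusted p = 0.84) and by 0.24 without the 4 livers (edgeR adjusted p = 0.33). For *Slc7a5* the difference was 0.39 (SE 0.33, edgeR adjusted p = 0.42). *Slc16a10* and *Slc1a4* differed by −0.01 (SE 0.15) and −0.39 (SE 0.18), neither called. *Slc43a1* failed the filter there too, and with no filter differed by −1.15 (SE 0.39, edgeR adjusted p = 0.061).

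Against Soy-20%, which had no added sulfur amino acids, none of the 8 transporters tested was called on Soy-10% by edgeR. In that comparison 0.866% of 11897 genes were called. *Slc38a4* differed by −0.21 (SE 0.06, edgeR adjusted p = 0.11), although every Soy-10% liver lay below every Soy-20% liver, as for 0.748% of all genes. DESeq2 called it (adjusted p = 0.0082) and no other transporter. *Slc38a3* differed by −0.20 (SE 0.08, edgeR adjusted p = 0.26) and *Slc3a2* by 0.21 (SE 0.07, edgeR adjusted p = 0.24). For *Slc7a2* the difference was 0.02 (SE 0.12).

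**Figure D3:**
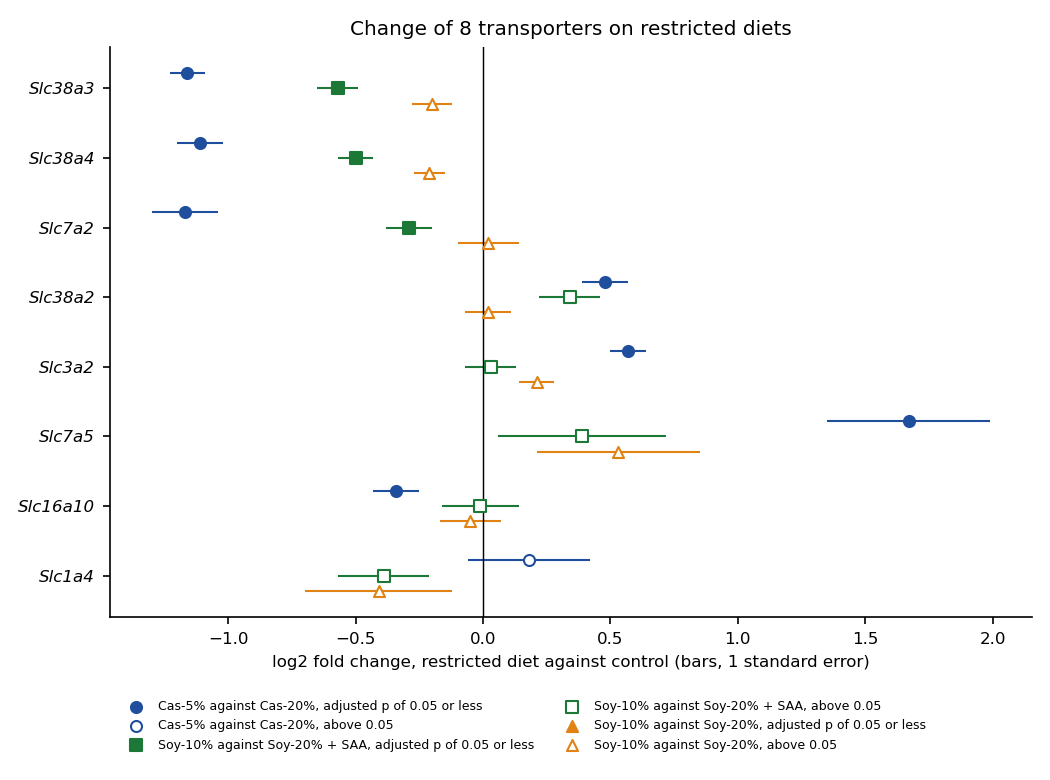
Log2 fold change (horizontal axis, bars of 1 standard error) of the 8 transporters tested in Cas-5% against Cas-20% (blue circles), Soy-10% against Soy-20% + SAA (green squares) and Soy-10% against Soy-20% (orange triangles). Filled symbols have an edgeR adjusted p of 0.05 or less. *Slc38a3*, *Slc38a4* and *Slc7a2* lie furthest left for casein, and no orange symbol is filled.

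The effects of casein and soy restriction were compared in 1 fit over 24 livers, as the casein log2 change minus the soy change with Soy-20% + SAA as control. Of 12532 genes, 8.69% were called, 3.2% higher and 5.49% lower. Of the 9 transporters, 3 were lower and 1 higher. The casein change minus the soy change was −0.88 for *Slc7a2* (SE 0.16, edgeR adjusted p = 0.0025), −0.61 for *Slc38a4* (SE 0.11, edgeR adjusted p = 0.0024) and −0.59 for *Slc38a3* (SE 0.11, edgeR adjusted p = 0.0018). All 3 stayed past the threshold without Soy-20% + SAA livers 3 to 6 (edgeR adjusted p = 0.019, 0.023 and 0.0092). For *Slc7a2* the controls differed more than the restricted diets. Cas-20% stood above Soy-20% + SAA by 0.60, while Cas-5% against Soy-10% was −0.28 and not called (SE 0.12, edgeR adjusted p = 0.15).

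For *Slc3a2* the casein change exceeded the soy change by 0.53 (SE 0.12, edgeR adjusted p = 0.011). Without those 4 livers the difference was 0.32 (edgeR adjusted p = 0.23), and with the GC slope as covariate 0.35 (edgeR adjusted p = 0.08). With Soy-20% in place of Soy-20% + SAA, 5.99% of 12450 genes and 5 of the 8 transporters tested were called, the same 4 and *Slc38a2* (0.46, SE 0.12, edgeR adjusted p = 0.024). That of *Slc3a2* was then 0.36 (SE 0.11, edgeR adjusted p = 0.041). *Slc7a5* missed the threshold with either control, at 1.28 (SE 0.48, edgeR adjusted p = 0.091) and 1.14 (SE 0.48, edgeR adjusted p = 0.18). *Slc1a4* stood at 0.56 (SE 0.32, edgeR adjusted p = 0.28), and passed at 0.86 without Cas-20% liver 2 (edgeR adjusted p = 0.035).

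Sulfur amino acids varied between Soy-20% and Soy-20% + SAA at the same soy protein level. None of the 7 transporters tested was called by edgeR, where 1 gene in 11932 was (0.00838%). For *Slc38a3* and *Slc38a4* every Soy-20% liver lay below every Soy-20% + SAA liver, as for 0.855% of all genes tested. The log2 differences were −0.36 (SE 0.08, edgeR adjusted p = 0.059) and −0.29 (SE 0.07, edgeR adjusted p = 0.065), and −0.33 and −0.30 without Soy-20% + SAA livers 3 to 6 (edgeR adjusted p = 0.64 and 0.63, with 2 livers left on that diet). DESeq2 called both on the 12 livers (adjusted p = 0.0024 for each). Without Soy-20% + SAA liver 1, edgeR called both and *Slc38a2*, and without liver 2 both. Shares of all genes called by DESeq2 or without those livers are not given here. These calls are therefore not to be set beside the 0.00838%.

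Protein source was compared at matched sulfur amino acids. Between the controls, *Slc38a3* was higher on Cas-20% than on Soy-20% + SAA by 0.34 (SE 0.08, edgeR adjusted p = 0.044) and *Slc7a2* by 0.60 (SE 0.10, edgeR adjusted p = 0.018), the only 2 of 8 called, beside 2.43% of 11988 genes (1.42% higher). For both, no livers overlapped, as for 1.5% of genes above. Neither call held without Soy-20% + SAA livers 3 to 6 (0.37 and 0.66, edgeR adjusted p = 0.57 and 0.43) or with the GC slope as covariate (edgeR adjusted p = 0.23 and 0.062). *Slc38a3* lost its call without any 1 of Cas-20% livers 1 to 6 or Soy-20% + SAA livers 3 to 6 (edgeR adjusted p of 0.05 to 0.1), and *Slc7a2* without Soy-20% + SAA liver 6 (edgeR adjusted p = 0.053). *Slc16a10* stood at 0.45 (SE 0.13, edgeR adjusted p = 0.059), and passed without Soy-20% + SAA liver 2 (0.047) or 3 (0.045).

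Between the restricted diets, 5 of the 8 transporters tested were called, beside 10.7% of 12041 genes (4.59% higher and 6.14% lower). *Slc1a4* was 2.17-fold higher on Cas-5% than on Soy-10% (log2 1.12, SE 0.16, edgeR adjusted p = 0.00024) with no overlap, which 1.77% of genes showed in that direction. *Slc38a2* was higher by 0.42 (SE 0.08, edgeR adjusted p = 0.003) and *Slc3a2* by 0.32 (SE 0.08, edgeR adjusted p = 0.017). *Slc38a4* was lower by a log2 difference of −0.44 (SE 0.07, edgeR adjusted p = 0.00064) and *Slc38a3* by −0.25 (SE 0.07, edgeR adjusted p = 0.031), both with no overlap, as for 4.09% of genes below. *Slc38a3* lost its call without Cas-5% liver 2, 3 or 4 or Soy-10% liver 3 or 4 (edgeR adjusted p of 0.058 to 0.07). *Slc7a5* stood at 0.90 (SE 0.30, edgeR adjusted p = 0.063), and passed without Cas-5% liver 5 (0.035) or Soy-10% liver 4 (0.026), the liver with acinar markers.

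Ordered by mean, the diets ran Cas-20%, Soy-20% + SAA, Soy-20%, Soy-10% and Cas-5% for *Slc38a3* and *Slc38a4*. Neighbours in that order differed by edgeR at both ends for *Slc38a3* and at the lower end for *Slc38a4* (log2 0.44 between Soy-10% and Cas-5%), and Soy-20% was called against neither soy neighbour. For *Slc7a2* Soy-10% and Soy-20% changed places and were not called (log2 0.02, SE 0.12). Its steps from Cas-20% to Soy-20% + SAA and from there to Soy-10% were called, and the last was not. *Slc38a2* had Cas-5% first, called against Soy-10%, and no step among the other 4 diets was called. *Slc3a2* also had Cas-5% first, then Soy-10%, Soy-20% + SAA, Soy-20% and Cas-20%, with only the first step called. *Slc7a5* had the same order, with no step called and the last 2 not tested. Among all genes, the steps not yet described, Cas-20% against Soy-20% and Cas-5% against Soy-20%, called 2.69% and 17.1%. In the former, 4 of the 7 transporters tested were called, all higher on Cas-20%. They were *Slc38a3* (log2 0.70, edgeR adjusted p = 0.00015), *Slc7a2* (0.91, 0.0021), *Slc38a4* (0.46, 0.0075) and *Slc16a10* (0.41, 0.047). In the latter, 3 of the 8 tested were called higher on Cas-5% and 2 lower.

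For *Slc1a4* Cas-5% came first, followed by Cas-20%, Soy-20%, Soy-20% + SAA and, last, Soy-10%, with no step called. Cas-20% was first for *Slc43a1* and *Slc16a10*. For *Slc16a10* the step from Cas-20% to Cas-5% was called and the other 3 were not, and its order changed when counts were scaled to CPM, as it did for no other transporter. A single test over the 30 livers for any difference among the diets called 43.4% of 12561 genes and all 9 transporters (edgeR adjusted p from 2e-12 for *Slc38a3* to 0.015 for *Slc16a10*). *Slc43a1* was among them (edgeR adjusted p = 0.00012). With the further limit of an absolute log2 fold change of 1 in the edgeR fits, 4 transporters were called on casein (3.48% of genes), 0 on soy against either control (2.57% and 0.227%), 0 between the controls matched in sulfur amino acids (0.475%), 1 between the restricted diets (0.872%) and 0 in the difference between effects (2.27%).

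Other amino acid transporters and carriers were read from the same fits, from lists set by function with earlier results of these data known. Of 29 other plasma membrane transporters listed, 14 were in the table and 13 were tested on casein, where 4 rose, 2 fell and 7 were not called, beside 11.6% of all genes rising and 13.3% falling. Their median log2 change was 0.17, against 0.016 for all genes. *Slc7a7*, the light chain y+LAT1, which also pairs with *Slc3a2*, went from 14.4 to 34 (median 24.2) on Cas-20% to 92.2 to 114 (median 102) on Cas-5%, 4.12-fold higher (log2 2.04, SE 0.15, edgeR adjusted p = 6.1e-08). *Slc7a1*, the cationic carrier CAT1, went from 11 to 13.9 (median 12.4) to 32.6 to 65.9 (median 47.2) (log2 1.93, SE 0.21, edgeR adjusted p = 4.3e-06), opposite in direction to its relative *Slc7a2*. Neither gene's casein livers overlapped.

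The glycine carrier *Slc6a9* rose by 1.09 (SE 0.08, edgeR adjusted p = 1.2e-07) and *Slc6a13*, a GABA and taurine carrier, by 0.41 (SE 0.06, edgeR adjusted p = 5.7e-05). *Slc6a12*, the betaine carrier, fell by 0.84 (SE 0.10, edgeR adjusted p = 1.2e-05) and the glutamate carrier *Slc1a2* by 0.33 (SE 0.10, edgeR adjusted p = 0.019). *Slc7a8*, a further partner of the CD98 heavy chain, differed by −0.51 (SE 0.21, edgeR adjusted p = 0.095), and is named only as such a partner, after its values were seen. Of the light chains of *Slc3a2* in the table, 2 of 3 therefore rose with it, *Slc7a5* and *Slc7a7*.

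All 12 intracellular carriers in the table were tested on casein, and none rose, 4 fell and 8 were not called, beside 11.6% of all genes rising and 13.3% falling (median log2 change −0.23, against 0.016). *Slc25a15*, the mitochondrial ornithine carrier of the urea cycle, fell by 0.76 (SE 0.11, edgeR adjusted p = 7.1e-05). *Ctns*, the lysosomal cystine exporter, fell by 0.45 (SE 0.11, edgeR adjusted p = 0.0063) and the aspartate-glutamate carrier *Slc25a13* by 0.24 (SE 0.07, edgeR adjusted p = 0.017). The fourth, *Slc36a1* (−0.22, SE 0.07, edgeR adjusted p = 0.035), and *Slc3a1* and *Slc38a7* on soy are named to complete the counts, after their values were seen.

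On Soy-10% against Soy-20% + SAA, 2 of the 13 plasma membrane transporters rose and 2 fell, and 2 of the 12 carriers fell, beside 8.51% of all genes rising and 8.47% falling. *Slc7a7* rose by 1.18 (SE 0.15, edgeR adjusted p = 0.00039), *Slc6a12* fell by 0.48 (SE 0.07, edgeR adjusted p = 0.0011), *Slc1a2* by 0.45 (SE 0.08, edgeR adjusted p = 0.0036) and *Slc25a15* by 0.38 (SE 0.09, edgeR adjusted p = 0.011). *Slc3a1*, the heavy chain of the cystine carrier, rose by 0.70 (SE 0.15) and *Slc38a7*, a lysosomal glutamine carrier, fell by 0.38 (SE 0.11). Without Soy-20% + SAA livers 3 to 6, the 25 genes gave 2 calls instead of 6. *Slc7a7* was the only gene of the 25 called against Soy-20% (log2 0.82, SE 0.15, edgeR adjusted p = 0.017).

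**Figure D4:**
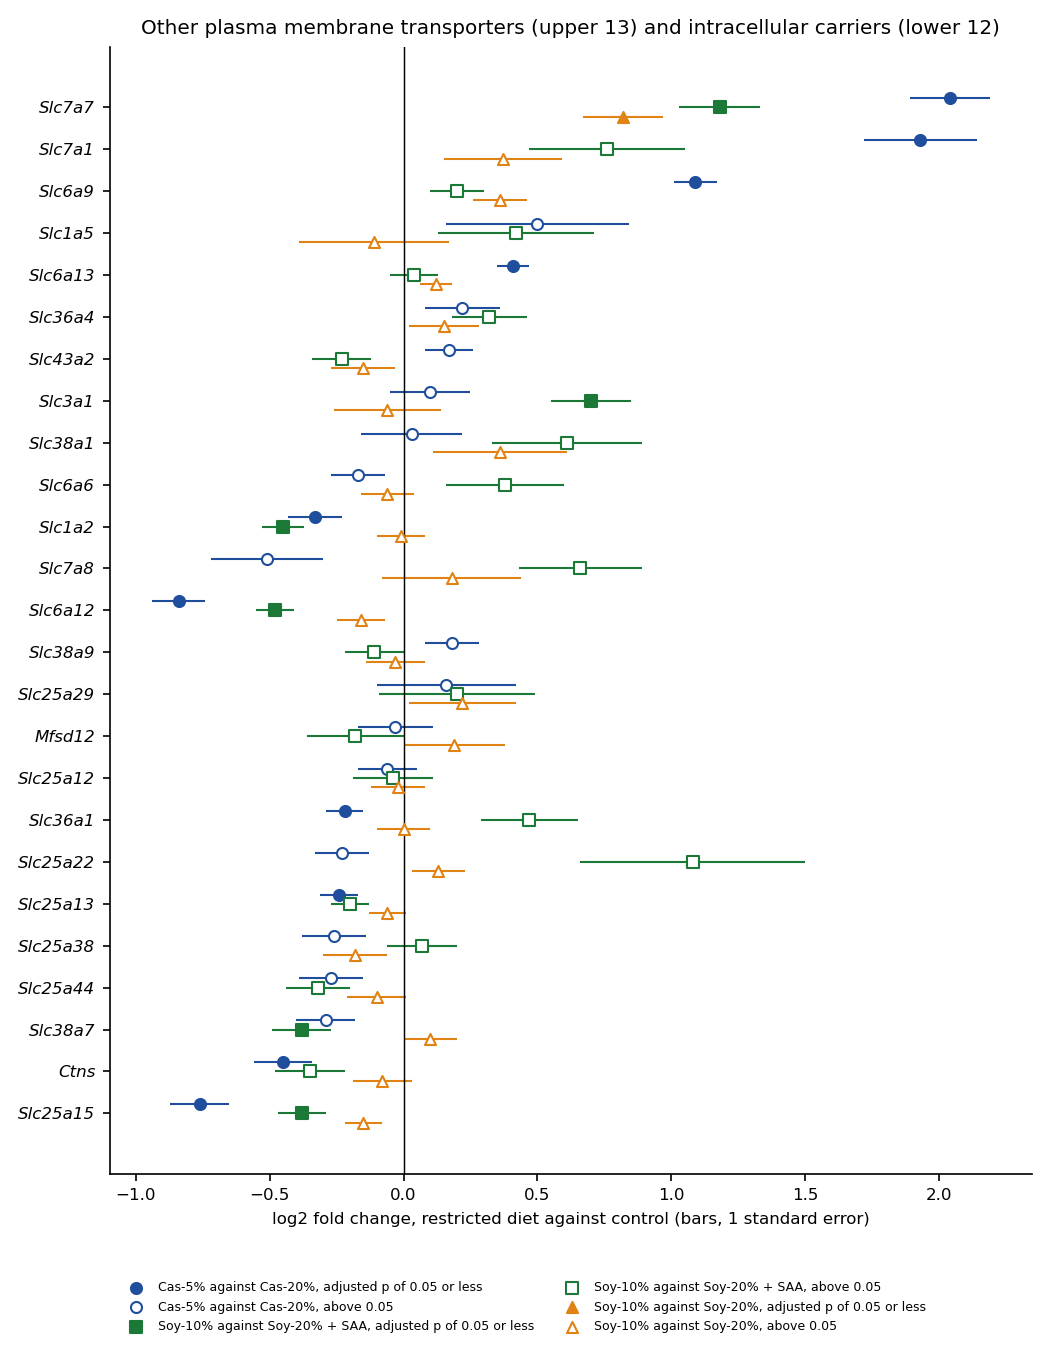
Log2 fold change (horizontal axis, bars of 1 standard error) of 13 other plasma membrane transporters (upper rows) and 12 intracellular carriers (lower rows) in the same 3 comparisons, with symbols as in the plot of the 8 transporters. *Slc7a7* is the only gene filled in all 3 comparisons, and no carrier has a filled symbol to the right of 0.

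*Asns*, asparagine synthetase and a target of ATF4, was read beside the transporters as a mark of amino acid shortage. Its normalized counts were 7.8 to 46.6 (median 19.2) on Cas-20% and 247 to 351 (median 295) on Cas-5%. They were 15.1 to 29.6 (median 21.9) on Soy-20% and 91 to 209 (median 155) on Soy-10%, so that neither restricted diet overlapped its control. It rose by 3.76 on Cas-5% (SE 0.24, edgeR adjusted p = 1.3e-08) and by 2.79 on Soy-10% against Soy-20% (SE 0.23, edgeR adjusted p = 2e-05). For *Asns*, the casein change minus the soy change was 0.95 with Soy-20% + SAA as control (SE 0.56, edgeR adjusted p = 0.29) and 0.96 with Soy-20% (SE 0.39, edgeR adjusted p = 0.15). Between the restricted diets, *Asns* was higher on Cas-5% by 0.94 (SE 0.17, edgeR adjusted p = 0.0018), without overlap. *Atf4* mRNA differed by 0.20 on Cas-5% (SE 0.13, edgeR adjusted p = 0.29) and by 0.11 on Soy-10% against Soy-20% (SE 0.07, edgeR adjusted p = 0.59).

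For each transporter, the 2 genes with the most similar pattern were found by Pearson r of log2 CPM over the same 26 livers, among 12032 genes of 10 or more mean counts. The livers share 5 diets, so any gene that follows diet scores high, and these values are a description. *Slc38a3* was closest to *Papss2* (r = 0.949), which makes the activated sulfate donor, and to *Aldh1l1* (0.938), a folate enzyme. *Slc38a4* was closest to *Gnmt* (0.947), the glycine methyltransferase that uses S-adenosylmethionine, and to *Upp2* (0.929). *Slc7a2* was closest to *Dynll2* (0.844) and *Hpd* (0.828), an enzyme of tyrosine breakdown.

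*Slc3a2* was closest to *Psat1* (0.925), an enzyme of serine synthesis, and *Gars* (0.923), the glycyl-tRNA synthetase. *Slc38a2* was closest to *Lepr* (0.889), the leptin receptor, and *Cd9* (0.885), and *Slc7a5* to *Nt5dc2* (0.879) and *Slc30a3* (0.839). *Slc43a1* was closest to *Cyp2c70* (0.826) and the urea cycle enzyme *Cps1* (0.815), and *Slc16a10* to *Pcdh1* (0.775) and *Atxn2l* (0.717). *Slc1a4* was closest to *Mug2* (0.796), which shares reads with near-identical *Mug* genes and is uncertain, and *Fkbp4* (0.743). Over all 30 livers these 18 values ran from 0.622 to 0.949.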

How the data were processed

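RNA was measured in 30 mouse livers, 6 on each of 5 diets, grouped by the labels. The authors made libraries with a QuantSeq 3′ kit. Per the study's methods, reads were mapped and counted by Lexogen's QuantSeq pipeline on the Bluebee platform, and the aligner inside it is not given in the sources used here. The submitters' processing notes name GRCm38, R 4.0.3 and DESeq2 1.30. One deposited table holds raw counts per gene, unnormalized. The other holds a normalized signal, which the authors made by dividing counts by DESeq2 size factors (0.759 to 1.297). Library totals were 7694015 to 14565542 counts, and low counts are limited by counting error.

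Raw counts were tested with edgeR 4.0.16 in R 4.3.3 (filterByExpr, TMM, quasi-likelihood F test, two-sided), each pair of diets apart, with Benjamini-Hochberg adjustment over all genes tested and calls at 0.05 or less. Fold changes are from these fits, and levels are the deposited normalized values. The difference between effects was fitted on 24 livers and any difference among diets on 30. The script was tested on simulated data. Alternatives were DESeq2 1.42.0, no filter, other scaling, a replicate block, 1 fit over all livers, leaving out livers, a library GC slope as covariate (from 11214 genes, GENCODE M21), and the study's limit of an absolute log2 fold change of 1. No pair of livers of 1 diet agreed within sampling noise (lowest chi-square per degree of freedom 6.93). Table coordinates of the 9 genes equal those of GENCODE M21.

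The 9 genes and all lists were chosen with earlier results of these data known. Named genes are all 9, and of other transporters and carriers up to 5 per direction by adjusted p among those called in Cas-5% against Cas-20% or Soy-10% against Soy-20%, with exceptions stated. *Asns* and *Atf4* were added for context. Kupffer, immune and red blood cell markers overlapped between Cas-5% and Cas-20%.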

Additional observations from a re-analysis of the deposited data

Results flagged for a closer look

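In 45 groups of 6 livers (9 transporters on 5 diets), 4 livers lay further from the rest of their diet than Dixon's 95% limit for 6 values allows. Chance gives about 1 in 20 groups. *Slc1a4* was 101.3 normalized counts in Cas-20% liver 2, with the next liver at 50.1, and 51.3 in Soy-20% + SAA liver 3, with the next at 34.5. *Slc3a2* was 799.8 in Soy-10% liver 6, with the next at 633.7. *Slc38a4* was 5790.7 in Cas-5% liver 3, with the next at 4823.5, and that liver still lay below every Cas-20% liver.

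In 4 transporters the casein effect differed from the soy effect by a test of the difference itself (edgeR, 24 livers). The log2 differences were −0.88 for *Slc7a2*, −0.61 for *Slc38a4*, −0.59 for *Slc38a3* and 0.53 for *Slc3a2*. The last was not called without Soy-20% + SAA livers 3 to 6.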

How the results depend on the processing

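No transporter's difference changed direction past the threshold. Of 780 values with 1 liver left out, 744 kept their side of the threshold, 24 lost the call and 12 gained it, and under the other settings 382 of 404 kept it, 10 lost it and 12 gained it. With the study's limit of an absolute log2 fold change of 1, the transporters called were 4 in Cas-5% against Cas-20%, 0 in Soy-10% and in Cas-20% against Soy-20% + SAA, 1 in Cas-5% against Soy-10% and 0 in the difference between effects, and the other transporters and carriers 3 on casein, and 1 and 0 on soy against Soy-20% + SAA and Soy-20%. With 1 fit over 30 livers, the other genes called on Soy-10% against Soy-20% + SAA were 11 instead of 6, and the transporters 3 in Soy-20% and 4 in Cas-20% against Soy-20% + SAA. Without Soy-20% + SAA livers 3 to 6 or with the GC slope, a choice made after seeing the data for the other genes, those 6, from the fit of that pair alone, were 2 and 2, and the transporters in Cas-20% against Soy-20% + SAA 0 and 0. DESeq2 called 1 transporter in Soy-10% against Soy-20% and 2 in Soy-20% against Soy-20% + SAA. Shares of all genes called under each of these settings are not given here, nor for the livers left out below. These counts therefore do not tell a shift of the transporters from a shift of all genes. The cause of these shifts was not tested.

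Leaving out 1 liver at a time, the transporters called ranged from 7 to 8 in Cas-5% against Cas-20%, 2 to 4 in Soy-10% against Soy-20% + SAA, 0 to 0 against Soy-20%, 0 to 3 in Soy-20% and 0 to 3 in Cas-20% against Soy-20% + SAA, 4 to 6 in Cas-5% against Soy-10% and 4 to 5 in the difference.

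Same-numbered livers did not deviate together (r of −0.19 to 0.23 over 10 pairs of diets), so numbers were not taken to pair them. With the replicate block, 1 transporter was called in Cas-20% against Soy-20% + SAA instead of 2 (*Slc38a3*, edgeR adjusted p = 0.067), 7 in Cas-5% against Cas-20% and 3 in Soy-10% against Soy-20% + SAA. At most 3 livers per pair of diets correlated best with their own number. Depth limits *Slc7a5* and *Slc43a1*, which had 38 counts or fewer in every library.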
